A study of Rattus norvegicus with 48 samples.

Results

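miR-378a and miR-505 are microRNAs (miRNAs), short RNAs that bind messenger RNAs and lower their output. Here they were followed in rat blood plasma through 3 mature products, rno-miR-378a-3p, rno-miR-378a-5p and rno-miR-505-3p, out of 645 mature miRNAs counted. They were chosen by their levels in these same samples, as miRNAs reported higher after surgery than at baseline. Their values against baseline are therefore a description without a test, and the tests concern what the choice did not use. The values of miR-378a-5p go against that description, since its level was not detectably higher at any of the 3 later time points.

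The plasma came from 12 male rats, 12 weeks old, each with 1 circular defect drilled in the skull cap, the calvaria. Their strain is Sprague-Dawley in the paper's methods, whereas its abstract names Wistar. Tail vein blood was taken before surgery (baseline) and at weeks 1, 4 and 8, which gave 48 small RNA-sequencing samples. The 6 strong regenerators and the 6 weak regenerators were the extremes of the operated animals by bone volume on microcomputed tomography. The defects were left empty, or received a collagen and hydroxyapatite scaffold that was plain, loaded with a plasmid for BMP2 and miR-590-5p, or loaded with extracellular vesicles of human mesenchymal stromal cells. Both regeneration groups mixed such treatments, but unequally. By the paper's counts, plain scaffolds occurred among the strong regenerators only, and plasmid scaffolds were more frequent among the weak ones. The treatment of each rat was not mapped here, so treatment and regeneration group cannot be fully told apart. There was no animal without surgery, so time after surgery, age and repeated anaesthesia cannot be told apart either.

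A miRNA is cut from a hairpin that can yield a product from each arm, named 5p and 3p, and the arm that is loaded into the silencing complex usually becomes the more abundant one. The seed, bases 2 to 8 of the mature miRNA, sets most of its target pairing. Mir378 lies inside Ppargc1b, which encodes a coactivator of mitochondrial and fat metabolism, and miR-378a is known from muscle, heart, liver and fat tissue. A plasma level cannot separate the number of cells that release a miRNA from the amount each cell releases.

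The mature sequences are shown because the 2 arms of miR-378a come from 1 hairpin but differ in level. The reads were also assigned to miRNAs by these letters. Capitals mark the seed. Sequences and positions are those of RefSeq on build GRCr8, all on the minus strand, and all 3 names matched.
rno-miR-378a-3p (chr18:57128925-57128945, 21 nt): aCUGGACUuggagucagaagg
rno-miR-378a-5p (chr18:57128962-57128983, 22 nt): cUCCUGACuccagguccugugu
rno-miR-505-3p (chrX:143778784-143778803, 20 nt): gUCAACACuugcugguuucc
rno-miR-505-5p (chrX:143778818-143778840, 23 nt), the other arm of miR-505: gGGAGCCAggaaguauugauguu
The 3 members have 3 different seeds, and none of them is the seed of another of the 693 mature rat miRNAs in that table. That table matched 583 of the 645 counted miRNAs. rno-miR-378b, a close relative of miR-378a-3p whose gene lies inside Ncoa2, was counted separately. Its mature sequence is not in that table, so whether it shares the seed of miR-378a-3p was not checked.

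Levels are given as RPM, the reads of a miRNA scaled to the miRNA total of its sample, and these totals lay between 393259 and 1586398 reads. miR-378a-3p was an abundant plasma miRNA, with a mean of 5512 RPM over all samples, rank 35 of 645 and 0.551% of the miRNA reads. miR-505-3p had a mean of 1330 RPM and rank 63. miR-378a-5p, the minor arm, had a mean of 68.9 RPM and rank 196. All 3 were counted in each of the 48 samples, but with unequal precision. The read counts ran from 1559 to 12701 for miR-378a-3p, from 539 to 2036 for miR-505-3p and from 17 to 133 for miR-378a-5p. At the median count, counting alone gives a coefficient of variation of 1.52% for miR-378a-3p, 3.06% for miR-505-3p and 13.7% for miR-378a-5p. The spread between rats at a time point was larger for each, at 16.7% to 33.6%, 7.94% to 11.3% and 21.3% to 30.4%, respectively. Counting error thus weighed most on miR-378a-5p.

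**Figure D1:**
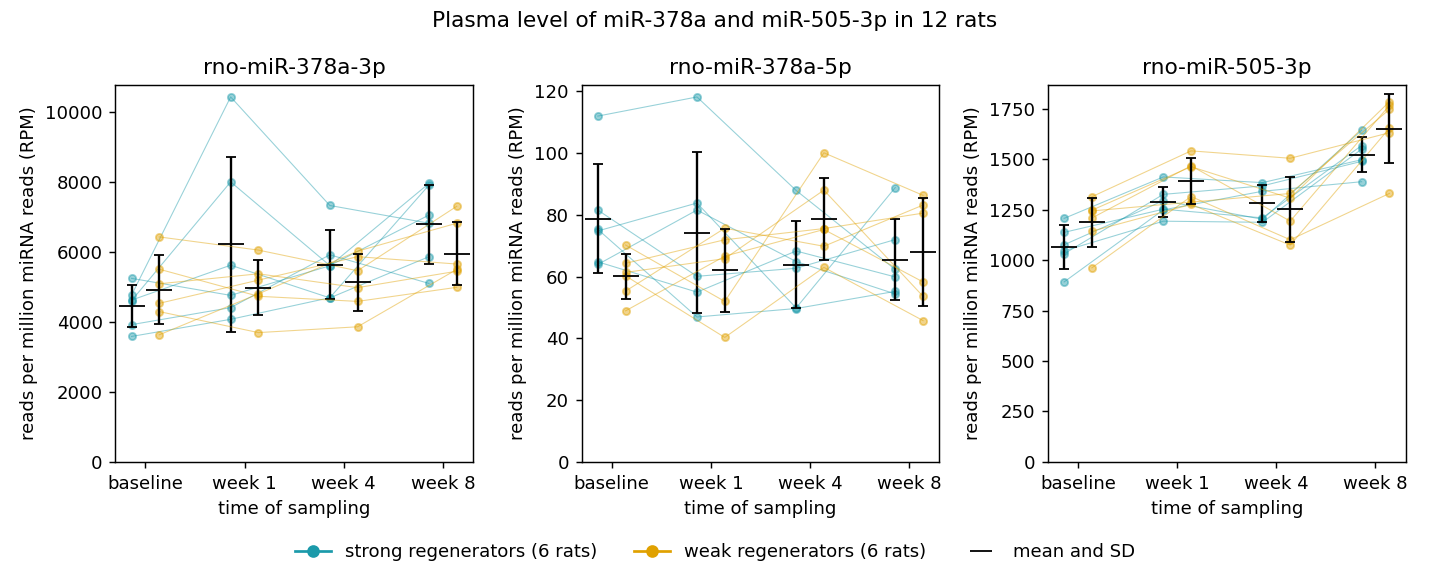
Plasma level in RPM (linear axis from 0) of the 3 miRNAs at baseline and weeks 1, 4 and 8, with 1 point per rat joined by lines, strong regenerators in turquoise and weak regenerators in yellow, and the mean with SD in black. The means of miR-378a-3p and miR-505-3p lie highest at week 8, while miR-378a-5p has no such course.

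miR-505-3p had the most uniform course. At baseline its level had a lowest value of 892 RPM, a median of 1141 and a highest of 1314 over the 12 rats. The corresponding values were 1193, 1305 and 1542 RPM at week 1, and 1075, 1258 and 1505 RPM at week 4. At week 8 the lowest was 1331, the median 1600 and the highest 1785 RPM. On this scale the lowest week 8 sample lay just above the highest baseline sample, in values on which the miRNA was chosen. The share of all miRNAs separated in this way was not counted. From baseline to week 8 the successive means were 1126 ± 127, 1340 ± 106, 1267 ± 126 and 1588 ± 145 RPM (SD, n = 12). The order was thus baseline, week 4, week 1 and week 8, and weeks 4 and 1 differed by less than 1 SD. Every rat was above its own baseline at weeks 1 and 8, and 10 of 12 were at week 4. Between weeks 4 and 8 the level was higher in 12 of 12 rats, by a mean of 0.33 ± 0.19 on the log2(RPM + 1) scale.

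miR-378a-3p varied more between rats. Its lowest, median and highest levels were 3587, 4618 and 6432 RPM at baseline, and 3697, 5001 and 10435 RPM at week 1. They were 3863, 5536 and 7331 RPM at week 4, and 4991, 6346 and 7963 RPM at week 8. All 4 time points overlapped. The successive means were 4689 ± 814, 5599 ± 1884, 5387 ± 900 and 6372 ± 1068 RPM (SD, n = 12). The number of rats above their own baseline was 8, 8 and 11 of 12 in weeks 1, 4 and 8. The wide spread at week 1 came with 2 strong regenerators, rat 21 at 10435 RPM and rat 29 at 8006 RPM, while the other 10 rats lay at or below 6056 RPM. Neighbouring means in the order baseline, week 4, week 1 and week 8 differed by less than the SD of the later one.

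For miR-378a-5p the mean RPM over the 12 rats changed little between time points. Its lowest, median and highest values were 48.9, 64.6 and 112 RPM at baseline, and 40.3, 66.2 and 118 RPM at week 1. They were 49.7, 69.1 and 100.1 RPM at week 4, and 45.8, 61.1 and 88.9 RPM at week 8. The means were 69.4 ± 16.2, 68.2 ± 20.7, 71.3 ± 15.2 and 66.7 ± 14.8 RPM (SD, n = 12), and no pair of them differed by as much as 1 SD. Of 12 rats, 7, 8 and 5 were above their own baseline in weeks 1, 4 and 8. At week 4 these were 2 strong and 6 weak regenerators, so the mean over all rats hides opposite changes in the groups.

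The fit over all miRNAs (edgeR, with TMM scaling, which sets the bulk of miRNAs level between samples) puts sizes on these changes. Relative to baseline, miR-505-3p was higher by 0.36 (SE 0.11), 0.28 (SE 0.11) and 0.57 (SE 0.11) on the log2 scale at weeks 1, 4 and 8, which is 1.28-fold, 1.21-fold and 1.49-fold. For miR-378a-3p the log2 differences were 0.33 (SE 0.10), 0.30 (SE 0.10) and 0.50 (SE 0.10), or 1.26-fold, 1.23-fold and 1.41-fold. For miR-378a-5p they were 0.08 (95% interval -0.19 to 0.35), 0.15 (-0.12 to 0.41) and 0.02 (-0.25 to 0.29). Each interval includes 0, and those of weeks 1 and 4 also include the estimates of miR-378a-3p.

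At a false discovery rate (FDR) under 0.05, miR-378a-3p and miR-505-3p were among the miRNAs called higher at week 1, where 12.5% of the 232 tested were called higher and 9.05% lower. Both were again among them at week 8, where 14.2% of 620 were called higher and 26.1% lower. None of the 3 was called by this edgeR fit at week 4, where 0.155% of 645 were called higher and 4.03% lower. Other settings did call members at week 4: DESeq2 called miR-378a-3p and miR-505-3p higher, and edgeR called miR-378a-3p with filterByExpr or without rat 25. These calls are what the members were picked for and carry no further weight. The week 1 call of miR-378a-3p was not made without rat 3, 21, 23 or 29, or with library size scaling, and that of miR-505-3p was not made without rat 17. With scaling to UniSp2, a spike-in RNA, neither was called at week 1, with log2 changes of 0.04 for miR-378a-3p and 0.08 for miR-505-3p. Over the 310 miRNAs with a mean of at least 10 RPM, the median log2 change was -0.04, 0.07 and -0.12 at weeks 1, 4 and 8.

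**Figure D2:**
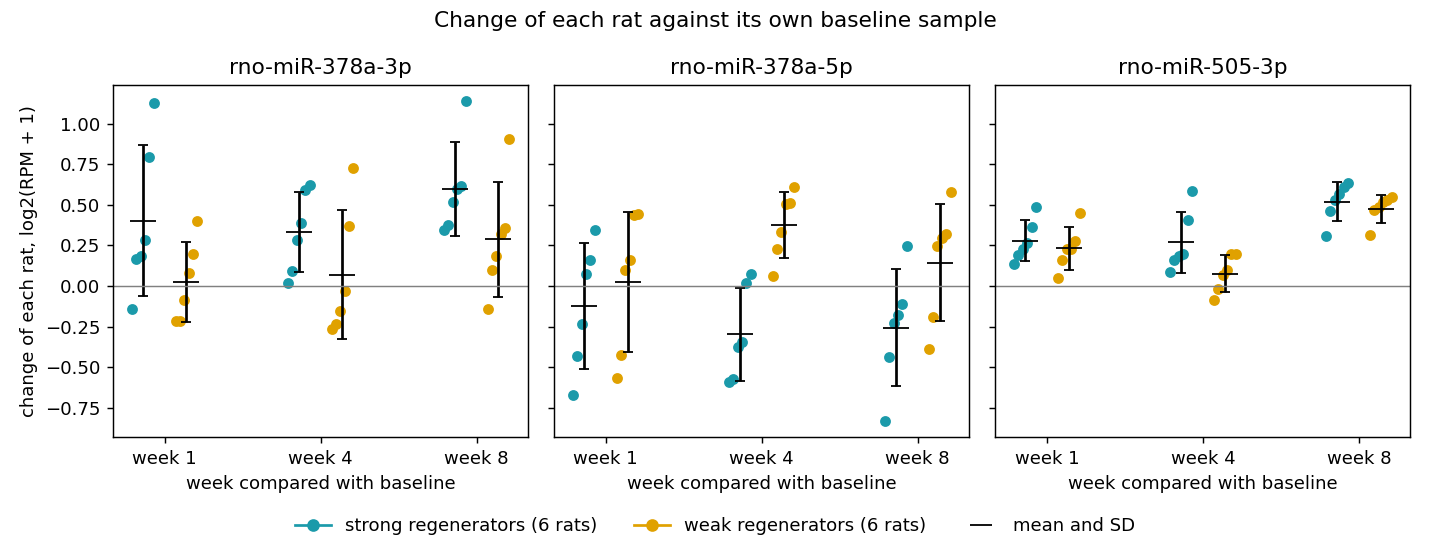
Change of each rat against its own baseline sample on the log2(RPM + 1) scale, 1 point per rat, strong regenerators in turquoise and weak regenerators in yellow, with the mean and SD in black. All 12 points of miR-505-3p lie above 0 at weeks 1 and 8, and those of miR-378a-5p lie on both sides of 0 at each week.

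The week 8 samples stood apart in the extraction spike-in UniSp2, a synthetic RNA added to each plasma sample before RNA isolation. There were 91.1 to 144 UniSp2 reads per 1000 miRNA reads at week 8, against 23.3 to 60.4 at the other time points. On that scale the direction at week 8 was the opposite: miR-378a-3p fell from 139 ± 21.1 reads per 1000 UniSp2 reads at baseline to 52.3 ± 5.97 at week 8 (SD, n = 12). miR-505-3p went from 33.8 ± 7.16 to 13.3 ± 2.46, and miR-378a-5p from 2.10 ± 0.642 to 0.554 ± 0.128. With UniSp2 scaling in the fit, the median of the 310 miRNAs moved to -2.01 at week 8, and the members stood at -1.41, -1.35 and -1.90 (miR-378a-3p, miR-505-3p and miR-378a-5p). Relative to that median they were 0.61, 0.66 and 0.11 higher, against 0.62, 0.69 and 0.14 with TMM. At week 1, too, the median moved, to -0.32, and the members stood 0.36, 0.40 and 0.10 above it. A scaling moves all miRNAs of a sample alike, so these distances from the median hardly depend on it by construction and do not support the direction. Per UniSp2 read all 3 members were lower at week 8. Less miRNA in the week 8 plasma and more spike-in in those extractions cannot be told apart.

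**Figure D3:**
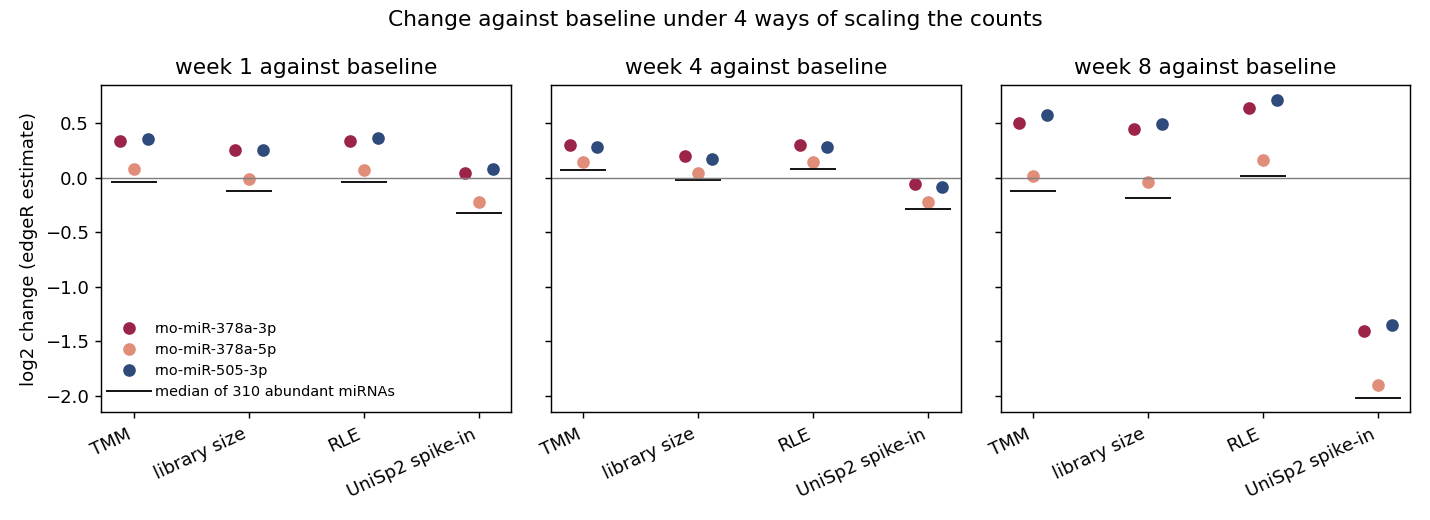
Log2 change against baseline (edgeR estimate) of the 3 miRNAs as points and of the median of 310 abundant miRNAs as a bar, under TMM, library size, RLE and UniSp2 scaling, in a panel for each week. At week 8 UniSp2 scaling moves the 3 miRNAs and the median below 0 together, since a scaling shifts all miRNAs of a sample alike.

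miRNAs of red blood cells reach plasma when such cells break. Over the 8 miRNAs listed for red blood cells, the summed level ran from 266386 to 369955 RPM at baseline and from 355671 to 482992 RPM at week 8, with 282235 to 486325 and 301409 to 483699 RPM at weeks 1 and 4. At week 1, 6 of the 8 were called higher and none lower, beside 12.5% and 9.05% of all miRNAs tested. At week 8, 5 were called higher and 1 lower, beside 14.2% and 26.1%. None of the list's miRNAs was at 0 in level, and its leading member miR-451-5p was 0.52 (SE 0.19) higher at week 1 and 1.04 (SE 0.19) at week 8. The list did not move as one. The next by level, miR-16-5p and miR-486, stood at -0.09 (SE 0.12) and 0.25 (SE 0.16) at week 8, neither called. The log2 ratio of miR-451 to miR-23a, a common measure of haemolysis, had successive means of 2.15 ± 0.57, 2.67 ± 0.71, 2.55 ± 0.60 and 2.95 ± 0.44 from baseline to week 8 (SD, n = 12). This ratio shares miR-451 with the list, and the order of its means is that of miR-378a-3p and miR-505-3p. With time point means subtracted, listed miR-144-5p had a Pearson r of -0.622 with miR-378a-3p and 0.368 with miR-505-3p over 48 samples. It is named as the miRNA least like the former and among the 5 most like the latter. The part of red blood cell miRNAs in the values of both was not tested.

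Lists for other sources were counted in the same way. Of the liver miRNAs, 3 of 4 tested were called higher and none lower at week 1, beside 12.5% and 9.05% of all tested. At week 8, 2 of 7 were called higher and 2 lower, beside 14.2% and 26.1%. The 2 directions held different members. Of those called higher, miR-802-5p stood at 0.66 (SE 0.25) at week 8. The 2 called lower were miR-192-5p (-0.84, SE 0.18), the most abundant of the list, and miR-122-5p (-1.18, SE 0.37). Of the 11 muscle miRNAs, 2 were called higher and 1 lower at week 8, and of the 7 platelet miRNAs 3 were called lower, beside the same 14.2% higher and 26.1% lower of all tested. With lists of this size the muscle and liver counts at week 8 are near those shares. At week 1 none of the 2 muscle and 7 platelet miRNAs tested was called, and at week 4 none of any list was.

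The closest relatives followed their own partners unequally. miR-378b had a mean of 160 RPM and was 0.41 (SE 0.12) higher at week 1 and 0.53 (SE 0.12) at week 8, both called, and 0.33 (SE 0.12) at week 4, which was not called. The ratio of miR-378a-3p to miR-378b reads moved by less than its SD, with successive means of 35.7 ± 3.99, 33.7 ± 3.47, 35.6 ± 5.57 and 34.9 ± 3.53 (SD, n = 12). Since the authors allowed 1 mismatch when they assigned reads, reads of miR-378a-3p counted as miR-378b, or the reverse, cannot be told apart from separate expression. miR-505-5p was near the limit of detection, with 0 to 29 reads per sample, and was counted in 46 of 48 samples. Its mean level was 7.48 ± 2.22 RPM at baseline and 3.87 ± 2.59 at week 8 (SD, n = 12), a log2 change of -0.79 (SE 0.39) that was not called (FDR 0.0978).

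Other miRNAs encoded inside genes of lipid and energy metabolism were listed as a comparison: miR-33 inside Srebf2, and miR-103 and miR-107 inside genes of pantothenate kinases, which start coenzyme A synthesis. Of these 7, none was called at week 1 (3 tested) or week 4, beside 12.5% and 0.155% of all miRNAs tested called higher. At week 8, 2 were called higher and none lower, beside 14.2% and 26.1%. A list of this size cannot set its count apart from those shares. The 2 called were miR-103-3p, with a log2 change of 1.08 (SE 0.11), and miR-107-3p, with 0.38 (SE 0.11). miR-33-5p changed by 0.29 (SE 0.14) and was not called. The median over the list at week 8 was 0.38, beside -0.26 over all miRNAs tested there. That list median includes minor arms with means between 0.429 and 3.75 RPM.

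The ratio of the 2 arms of miR-378a varied widely between rats. At baseline the median rat had 67.4 reads of the 3p arm per read of the 5p arm (as a ratio of RPM + 1), with a range of 42.2 to 110. At weeks 1 and 4 the median was 78.3 and 78.1, and at week 8 it was 93.9, with a range of 66.8 to 144. Expressed as log2 of 5p over 3p, the mean change from baseline to weeks 1, 4 and 8 was -0.27 ± 0.53, -0.16 ± 0.62 and -0.50 ± 0.55 (SD, n = 12), and the ratio was lower in 8, 7 and 9 of the 12 rats. Each of these mean changes is smaller than its SD. The strong regenerators made up 5, 6 and 6 of the rats with a lower ratio and the weak ones 3, 1 and 3. In strong regenerators the mean changes were -0.53, -0.63 and -0.86, and in weak ones -0.0015, 0.31 and -0.14. Such shifts were common, since the median absolute change over the 76 hairpins with both arms measured was 0.262, 0.0965 and 0.869, and 36, 26 and 52 of them moved by more than miR-378a.

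The levels of strong and weak regenerators were compared next, a contrast that played no part in choosing the 3 miRNAs. None was called over all time points, at any single time point or in the change from baseline. Over all miRNAs, 0.0% of 645 were called over all time points and at baseline, week 1 and week 4, and 0.155% at week 8. That one was miR-203b-3p, named after its value was seen, with a log2 difference of 2.13 (SE 0.47, edgeR FDR 0.0223) at 16.5 RPM. For the difference between the groups in the change from baseline, 0.0% were called at weeks 1, 4 and 8. At an unadjusted p under 0.05, edgeR gave 64 miRNAs over all time points, and 42, 32, 25 and 35 at baseline, week 1, week 4 and week 8. It gave 27, 38 and 26 for the changes, and DESeq2 called 0 in each of these comparisons. The 64 treat the 4 samples of a rat as independent. In a limma fit with the rat as a block, the number was 30 over all time points (smallest FDR 0.773) and 69 at baseline.

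**Figure D4:**
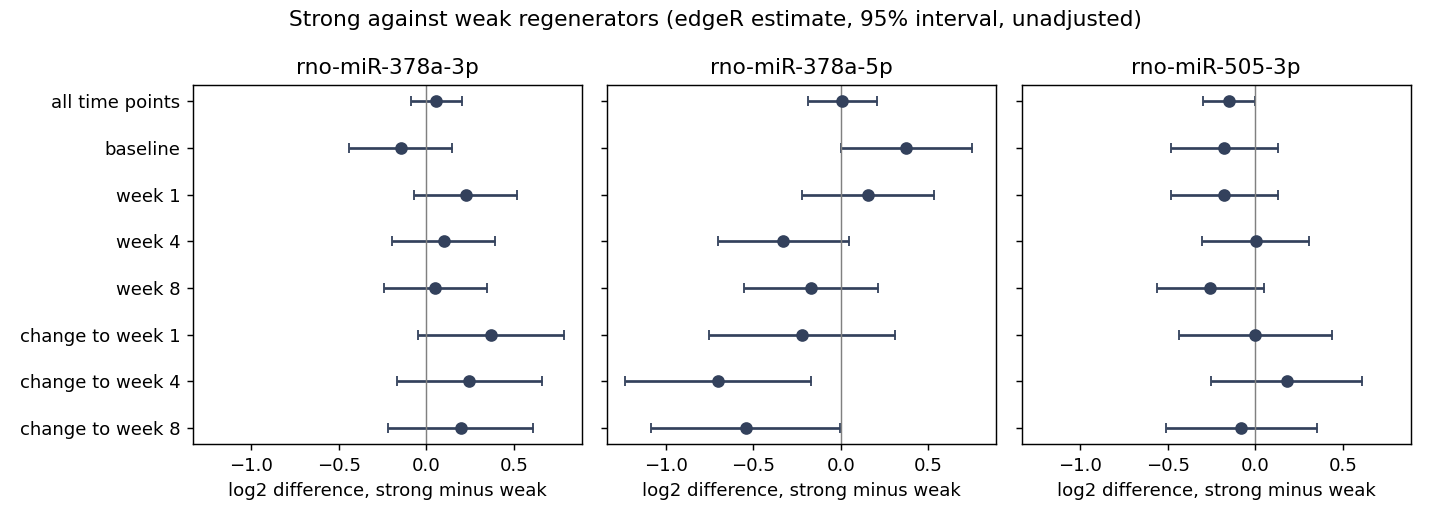
Log2 difference between strong and weak regenerators (edgeR estimate with its unadjusted 95% interval) of the 3 miRNAs, over all time points, at each time point and in the change from baseline, where positive values are higher in strong regenerators. Of the 24 intervals, 3 exclude 0 (miR-505-3p over all time points, and the changes of miR-378a-5p to weeks 4 and 8), and no difference passed the adjustment.

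miR-505-3p had lower mean levels in strong regenerators at baseline and at weeks 1 and 8, but the difference was not called. At baseline the 6 strong regenerators had 892, 1061 and 1207 RPM as lowest, median and highest values, and the 6 weak ones 962, 1226 and 1314 RPM. At week 8 the strong ones had 1389, 1524 and 1644 RPM and the weak ones 1331, 1700 and 1785 RPM. No strong regenerator exceeded the median of the weak ones at either time, although the groups overlapped at every time point. The log2 difference over all time points was -0.15 (SE 0.07, 95% interval -0.30 to -0.0044), with an unadjusted p of 0.0438 and an edgeR FDR of 0.456. At single time points it was -0.18, -0.18, 0.0026 and -0.26 at baseline and weeks 1, 4 and 8, all with an edgeR FDR of at least 0.765. The exact permutation test over rats gave p = 0.186 for the mean over the 4 samples of a rat. The change from baseline to week 4 went the other way. It was 0.27 ± 0.19 in strong and 0.07 ± 0.11 in weak regenerators on the log2(RPM + 1) scale (SD, n = 6). Its exact permutation p was 0.0584, or 0.533 after adjustment over 310 miRNAs, and 0.156 unadjusted with TMM-scaled values. The week 8 value depended on single weak regenerators: it was -0.34 without rat 25, whose 1331 RPM was the lowest of its group, and -0.16 without rat 6, and neither was called. The summed red blood cell list was also lower in strong regenerators at week 8, with 355671 to 462388 RPM against 378610 to 482992 RPM, and its part in the difference was not tested.

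miR-378a-3p did not differ detectably between the groups. At baseline the lowest, median and highest levels were 3587, 4618 and 5248 RPM in strong and 3634, 4813 and 6432 RPM in weak regenerators. At week 8 they were 5103, 6941 and 7963 RPM in strong and 4991, 5580 and 7308 RPM in weak ones. The groups overlapped at each time point. The log2 difference over all time points was 0.06 (SE 0.07, 95% interval -0.09 to 0.20, edgeR FDR 0.870). In the change from baseline the strong regenerators had the larger value at each week, by 0.37 (95% interval -0.05 to 0.79), 0.25 (-0.17 to 0.66) and 0.20 (-0.22 to 0.61) on the log2 scale to weeks 1, 4 and 8, with an edgeR FDR of at least 0.867. Single rats moved these values: without rat 21 the one to week 1 was 0.22, and without rat 3 those to weeks 4 and 8 were 0.45 and 0.41, none of them called. All 6 strong regenerators were above their own baseline at weeks 4 and 8, and 2 and 5 of the 6 weak ones were. The exact permutation test gave p = 0.119, 0.195 and 0.132 for the 3 changes, with adjusted values of at least 0.713 over 310 miRNAs.

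Of the 3 miRNAs, miR-378a-5p showed the widest gap between the groups, in opposite directions at baseline and week 4. At baseline the strong regenerators had 63.9, 75.1 and 112 RPM as lowest, median and highest values, and the weak ones 48.9, 60.8 and 70.2 RPM. At week 1 the strong regenerators were still higher in mean level, at 74.3 ± 26.05 against 62.1 ± 13.4 RPM (SD, n = 6), with a log2 difference of 0.15 (SE 0.19). At week 4 the order was turned around, with 49.7, 63.8 and 87.9 RPM in strong and 63.0, 75.4 and 100.1 RPM in weak regenerators. The groups overlapped at each time. All 6 strong regenerators exceeded the weak median at baseline and 1 of 6 did at week 4. From baseline to week 4 the level changed by -0.30 ± 0.29 in strong and by 0.38 ± 0.21 in weak regenerators on the log2(RPM + 1) scale (SD, n = 6), and it was higher in 2 of 6 strong and 6 of 6 weak rats. The difference of -0.67 had an exact permutation p of 0.00433 (the smallest that 6 against 6 rats allow is 0.00216), which became 0.533 after adjustment over 310 miRNAs. In the edgeR fit the same contrast was -0.70 (SE 0.26, 95% interval -1.23 to -0.17), with an unadjusted p of 0.0104 and an FDR of 0.532. The baseline difference of 0.37 in log2(RPM + 1) had an exact permutation p of 0.0152 and an adjusted p of 0.572. The edgeR estimate at baseline, also 0.37 (SE 0.19, 95% interval -0.0020 to 0.75), had an unadjusted p of 0.0512 and an FDR of 0.703. Leaving out rat 21, the highest of the baseline samples at 112 RPM, changed the edgeR value at baseline to 0.28 and that of the change to week 4 to -0.67. The difference over all time points was 0.01 (SE 0.10, 95% interval -0.19 to 0.20, edgeR FDR 0.997). These differences thus fail the correction for the number of miRNAs tested.

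The arm ratio of miR-378a, taken from RPM + 1 of each arm, hardly depends on the scaling of a library. The ratio turned in the same direction. It is built from the same miR-378a-5p reads, so it is not an independent second result. At baseline there were 42.2 to 80.8 reads of the 3p arm per 5p read in strong regenerators (median 60.1) and 64.5 to 110 in weak ones (median 75.3). At week 4 there were 73.7 to 110 in strong (median 85.3) and 54.1 to 85.1 in weak regenerators (median 62.7). From baseline to week 4 the log2 ratio of 5p to 3p changed by -0.63 ± 0.32 in strong and by 0.31 ± 0.46 in weak regenerators (SD, n = 6), and it fell in 6 of 6 and 1 of 6 rats. The difference of -0.94 had an exact permutation p of 0.00433 and an adjusted p of 0.110 over 76 hairpins, and that to week 8, at -0.71, an exact p of 0.0195 and an adjusted p of 0.395. No hairpin passed the adjustment in these comparisons, in which 9 and 5 of 76 had an exact p under 0.05.

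**Figure D5:**
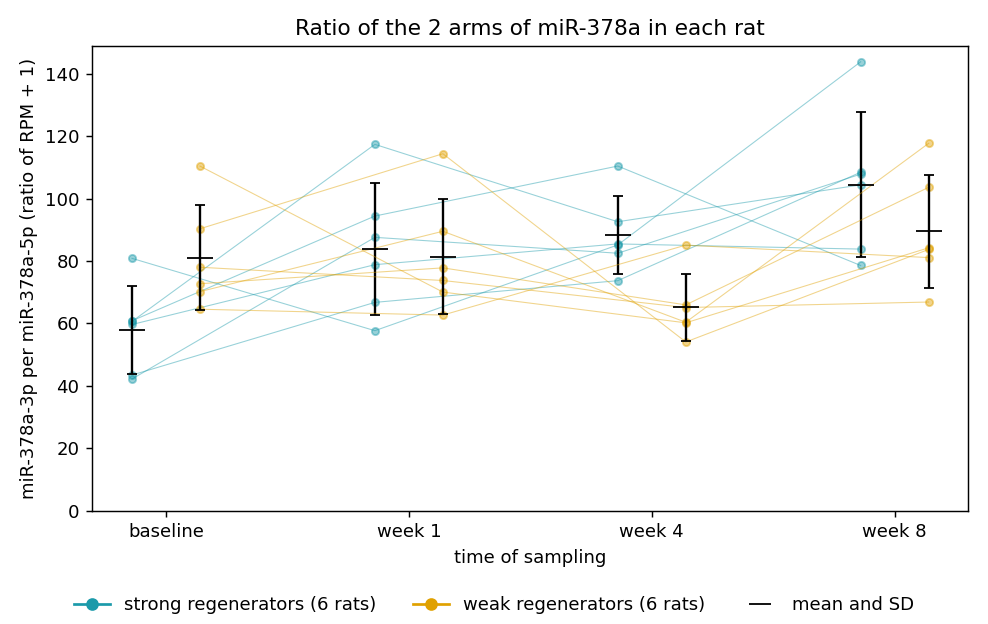
Ratio of miR-378a-3p to miR-378a-5p (RPM + 1 for each arm, linear axis from 0) in each rat at the 4 time points, strong regenerators in turquoise and weak regenerators in yellow, with the mean and SD in black. Strong regenerators lie lower at baseline and higher at week 4, with overlap at both times.

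Between rats, the levels of the 2 arms of miR-378a went together, and a relation of either to miR-505-3p was not detected. Over the means of the 4 samples of each of the 12 rats, miR-378a-3p and miR-378a-5p had a Pearson r of 0.835 (permutation p = 0.00085, adjusted p = 0.0051) and a Spearman rho of 0.776 (permutation p = 0.00451, adjusted p = 0.0135), adjusted over 3 pairs and both measures. Within the 6 strong and the 6 weak regenerators r was 0.806 and 0.885. Without the 2 rats farthest from the median, r was 0.546. With TMM-scaled values it was 0.573 (permutation adjusted p = 0.300), and without the 2 farthest rats -0.140, so the relation was not established on that scale. miR-378a-3p and miR-505-3p had an r of -0.321 and a rho of -0.350 (both permutation p adjusted 0.461), and miR-378a-5p and miR-505-3p an r of -0.0497 and a rho of -0.105 (both adjusted 0.881).

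The miRNAs most like each member were ranked by the Pearson correlation of log2(RPM + 1) over the 48 samples, among 310 miRNAs with a mean of at least 10 RPM. These values are a description, since the samples share rats, time points and scaling. Nearest to miR-378a-3p were miR-378b (0.889), miR-29c-3p (0.746), the liver miRNA miR-802-5p (0.726), miR-24-2-5p (0.676) and miR-187-3p (0.676). The least like it were miR-18a-5p (-0.600), let-7i-5p (-0.575) and let-7b-5p (-0.546). A different set stood out for miR-505-3p, which shared none of these 5. Nearest to it were miR-19b-3p (0.772), miR-30e-3p (0.732), the red blood cell miRNA miR-144-5p (0.726), miR-181c-5p (0.722) and miR-301a-3p (0.719). At the other end stood miR-322-3p (-0.797), miR-503-5p (-0.797) and miR-455-5p (-0.778). miR-378a-5p had weaker ties, led by the muscle miRNA miR-1-3p (0.50), then miR-126a-5p (0.439), miR-28-5p (0.433), miR-3068-3p (0.429) and miR-582-5p (0.424). The red blood cell miRNAs miR-486 (-0.375), miR-25-3p (-0.361) and miR-144-5p (-0.313) were the least like it. miR-144-5p was thus among the nearest to miR-505-3p and among the farthest from miR-378a-5p. After the mean of each time point was subtracted, the same 5 miRNAs stayed nearest to miR-378a-3p, against 3 of 5 for miR-505-3p and 2 of 5 for miR-378a-5p. The highest r was then 0.861 for miR-378a-3p, 0.502 for miR-378a-5p and only 0.380 for miR-505-3p, whose tie to miR-19b-3p fell to 0.350. Much of the likeness of miR-505-3p thus lay between time points, on which it was chosen.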

How the data were processed

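Plasma small RNA of 12 rats at 4 time points was sequenced (RealSeq single-adapter libraries). The authors trimmed reads with cutadapt 3.3, mapped them with Bowtie 1.3.0 and miRDeep2 to the rat genome (Rnor 6.0 in the paper's methods, whereas the submitters' processing notes name GRCh38.p12) and to rat miRNAs of miRBase, allowing 1 mismatch, and deposited raw counts of 645 miRNAs and 3 spike-ins without normalization. Baseline samples took the regeneration group of their animal. The members and the 6 lists (47 miRNAs) were chosen with earlier results of these data known. The miRNAs named are the 3 members, the 5 most and 3 least like each (Pearson r) and up to 4 of each list by mean RPM.

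Counts of all miRNAs from all 48 samples were fitted with R 4.3.3 and edgeR 4.0.16 (TMM, quasi-likelihood, independent filter on mean RPM by the rule of DESeq2), with Benjamini-Hochberg adjustment and calls at an FDR under 0.05. Models held the week, the week plus the regeneration group, or the 8 groups, without a term for the rat. All 3 members passed the filter in each comparison. Single values were compared by two-sided exact permutation over the 12 rats on log2(RPM + 1), adjusted over 310 miRNAs or 76 hairpins, and correlations with 100000 permutations. Fits with the rat as a block used edgeR or limma 3.58.1, and DESeq2 1.42.0 was another alternative. Equal numbers mark samples of 1 animal, per the labels, and deviations from group means had a mean correlation of 0.107 within and -0.0093 between rats. The 4 samples of a rat are thus not independent, and p-values over samples treat them as if they were. Reads carry no molecular identifiers, so counting errors cover counting alone. The scripts were tested on simulated data. Tables and plots used Python 3.11.15, numpy 2.4.6, scipy 1.17.1, pandas 2.3.3 and matplotlib 3.10.9.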

Additional observations from a re-analysis of the deposited data

Results flagged for a closer look

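In 24 groups of 6 samples (3 miRNAs, 4 time points, strong and weak regenerators), the extreme sample was set against the others by Dixon's criterion, which chance alone meets in about 1 of 20 groups. 2 of the 24 groups met it. miR-378a-5p was highest in strong regenerator 21 at baseline, at 112 RPM from 54 reads, and the next highest was 81.6 RPM. miR-505-3p was lowest in weak regenerator 25 at week 8, at 1331 RPM from 709 reads, and the next lowest was 1631 RPM.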

How the results depend on the processing

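All values are log2 unless they are counts or correlations. With UniSp2 scaling, the changes at week 8 were -1.41 for miR-378a-3p, -1.90 for miR-378a-5p and -1.35 for miR-505-3p, those at week 4 were -0.0627 for miR-378a-3p and -0.0886 for miR-505-3p, and miR-505-3p changed by 0.0783 at week 1. Strong against weak regenerators, it gave -0.0147 for miR-378a-3p and -0.0615 for miR-378a-5p over all time points, and -0.20 for miR-378a-3p and -0.28 for miR-505-3p at week 4, with differences in the change to week 4 of -0.14 and -0.20. It called 61 miRNAs at week 4 (27 with TMM), 499 at week 8 (1 higher and 498 lower, against 250 with TMM, 88 higher and 162 lower) and 0 between strong and weak regenerators at week 8 (1 with TMM), where DESeq2 also called 0. At week 8 miR-505-3p stood at 0.71 with RLE and with DESeq2. At week 1, 50 miRNAs were called (29 higher), against 32 with library size (7 higher), 25 without a filter (11 higher) and 62 with UniSp2 (3 higher). At week 4, DESeq2 called 6 higher and 27 lower. Library size scaling gave miR-505-3p differences in the change of 0.0444 and 0.0389 at weeks 1 and 8, and exact tests on TMM values gave -0.00811 and -0.0821. With the rat as a block, miR-378a-5p stood at -0.00138 between strong and weak regenerators over all time points, and the block changed no call of a member. Leaving out 1 rat at a time, miR-505-3p at week 8 lay between 0.55 and 0.73, and, strong against weak, miR-378a-5p over all time points ranged from -0.0539 to 0.0461, miR-505-3p at week 4 from -0.0763 to 0.13, and miR-378a-3p at week 8 from -0.000813 to 0.14. The difference in the change of miR-505-3p ranged from -0.0703 to 0.0772 (week 1) and from -0.14 to 0.0226 (week 8). The number called lay between 24 and 47 at week 1, where the 24 came without rat 7 or 29, between 0 and 2 for strong against weak regenerators over all time points (2 without rat 2), 0 and 1 at week 1 (1 without rat 26), and 0 and 1 at week 8 (0 without rat 2, 3, 6, 7, 16, 21, 23 or 26). For the change it lay between 0 and 9 to week 4 (9 without rat 5) and 0 and 1 to week 8 (1 without rat 25). The correlation of the miR-378a arms over rats was 0.573 with TMM and 0.411 at week 8 alone, a setting chosen after seeing the data, and that of miR-378a-5p and miR-505-3p was 0.092 without week 8. Of the 5 nearest miRNAs, 2 and 3 were shared for miR-378a-5p and miR-505-3p after subtracting time means, and 1 for miR-378a-5p at 100 RPM or more. Of the other values under these alternatives, 843 kept their direction and call. The cause of these shifts was not tested. Depth limits miR-378a-5p most, whose 17 reads in 1 sample have a counting interval of 9.90 to 27.2.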
